A study of Mus musculus with 25 samples.

Results

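The SREBP-linked lipid synthesis genes examined here are 9 genes of fatty acid and sterol synthesis, Fads1, Fads2, Scd1, Scd2, Insig1, Hmgcs1, Srebf1, Fasn and Acaca. The table used here holds 8829 genes, and it has a row for 7 of the 9. Fads2 and Insig1 have none and were not analysed here. The genes were chosen by name with the thymol contrast and the co-variation between mice already known, so both are given below as descriptions. Counts past a threshold and intervals given for the members are part of that description and are not read as tests. The muscle was the gastrocnemius of 25 male SAMP8 mice, a senescence-prone strain, each with its own 3′ QuantSeq library. Treatment began at 8 months of age and lasted 3 months. The 11 control mice received the vehicle, corn oil, and the 14 thymol mice received thymol by mouth at 20 mg per kg per day. All mice were of this aged strain, and no young or long-lived strain was among the libraries.

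SREBP proteins are transcription factors held in the membrane of the endoplasmic reticulum, from where SCAP carries them to the Golgi to be cut and released, and INSIG proteins retain them when sterols are plentiful. Srebf1 encodes the form that mainly drives fatty acid synthesis, while the form encoded by Srebf2 mainly drives cholesterol synthesis and uptake. Acaca (acetyl-CoA carboxylase 1) makes malonyl-CoA, Fasn (fatty acid synthase) builds palmitate from it, Scd1 and Scd2 (stearoyl-CoA desaturases) place the first double bond, Fads1 (delta-5 desaturase) acts on polyunsaturated fatty acids, and Hmgcs1 (HMG-CoA synthase) acts early in the mevalonate pathway towards cholesterol. Fat cells, which lie between muscle fibres, are rich in most of the fatty acid enzymes.

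The promoters of Hmgcs1 and Fasn are shown because these enzyme genes had the smallest and the largest spread between mice of the 7. Each sequence is the 250 bases before the RefSeq start (GRCm38.p6), 5′ to 3′ on the strand of the gene. Hmgcs1 lies at chr13:119690101-119690350 on the plus strand and Fasn at chr11:120824548-120824797 on the minus strand. Capitals mark matches to the sterol regulatory element TCACNCCAC and to the NF-Y letters CCAAT, both searched on both strands, so that CCAAT on the other strand reads ATTGG.
Hmgcs1: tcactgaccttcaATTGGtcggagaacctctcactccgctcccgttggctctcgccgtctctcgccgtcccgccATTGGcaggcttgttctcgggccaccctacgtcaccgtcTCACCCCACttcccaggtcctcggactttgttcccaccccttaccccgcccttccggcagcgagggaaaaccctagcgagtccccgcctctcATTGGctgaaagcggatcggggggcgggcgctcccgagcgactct
Fasn: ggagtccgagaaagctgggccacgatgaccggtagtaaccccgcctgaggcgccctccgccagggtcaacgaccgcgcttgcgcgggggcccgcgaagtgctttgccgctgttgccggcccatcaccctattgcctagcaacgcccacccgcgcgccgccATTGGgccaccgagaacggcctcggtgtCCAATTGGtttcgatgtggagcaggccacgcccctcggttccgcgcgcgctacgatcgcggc
The Hmgcs1 stretch held 1 match to TCACNCCAC, 137 to 129 bases before the start, and 3 matches to CCAAT. The Fasn stretch held no match to TCACNCCAC and 3 to CCAAT, of which the pair 62 to 58 and 59 to 55 bases before the start overlaps. Among all 32851 RefSeq promoters of this length, 1.05% held TCACNCCAC and 33.8% held CCAAT. These matches describe the letters only.

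The reads in the 8829 genes of the table, a lower bound of the sequencing depth, were recovered from the steps between low values. They ranged from 4463818 to 9463418 reads per mouse, with a median of 7503259. Values are log2 CPM, the base 2 logarithm of a gene's reads scaled to a common library size (counts per 1000000 reads) after normalization, so that a difference of 1 is a doubling. Skeletal muscle as the tissue was borne out by the myofibre genes (Acta1, Ckm and 6 others). Their summed level lay between 92150 and 124200 CPM over all mice. These genes were not used to tell the gastrocnemius from another muscle. Whether lower values reflect fewer cells of a type or less RNA per cell cannot be told apart in bulk tissue.

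The members covered a wide range of levels and of spread. By the mean over 25 mice the order was Scd1, Hmgcs1, Fasn, Scd2, Srebf1, Acaca and Fads1, in 3′ tag counts, which take about 1 read per transcript and were not divided by length. Scd1 lay above Hmgcs1 in 22 of 25 mice and Srebf1 above Acaca in 23 of 25. The neighbours Hmgcs1 and Fasn did not separate beyond their spread, with Hmgcs1 higher in 16 of 25 mice and a mean difference of 0.19 ± 1.12 (SD). Scd2 and Srebf1 were also close, with a mean difference of 0.26 ± 0.41 (SD). The median share of Scd1 in the reads of the 7 genes was 41.0% in control and 41.8% in thymol mice.

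Srebf1, the transcription factor itself, had a lowest, median and highest value of 3.10, 3.87 and 4.67 log2 CPM in control mice and of 3.22, 3.78 and 4.41 in thymol mice. The thymol range lay inside the control range. Reads from its alternative first exons cannot be separated by 3′ tags. Its 3′ end also overlaps that of Rai1 on the opposite strand in GRCm38 (Srebf1 at chr11:60199089-60222581), and the strand setting of the counting is not given in the sources used here.

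Hmgcs1 was the steadiest member. Control values had a lowest, median and highest of 4.72, 4.92 and 5.32, and thymol values of 4.85, 5.10 and 5.50. The groups overlapped over most of their ranges, although 12 of 14 thymol mice were above the control median. Its within-group SD was 0.19, below the median SD of 0.21 among the 1598 genes of like level.

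Fasn and Scd1 were at the other extreme. Fasn ranged from 3.59 through a median of 4.58 to 6.95 in control mice and from 2.24 through 4.69 to 7.16 in thymol mice, a 30.2-fold range between the lowest and the highest thymol mouse. Scd1 ranged from 5.01 through 6.61 to 8.31 in control mice and from 4.53 through 6.51 to 9.07 in thymol mice, a 23.3-fold range among the latter. In both genes the highest and the lowest of all mice were thymol mice 7 and 16, and the remaining mice of the groups were interspersed. The within-group SD was 1.13 for Fasn and 1.10 for Scd1, whereas genes of like level had median SDs of 0.21 and 0.17, and only 47 and 50 of the 8829 genes varied more. Counting error accounted for an SD of 0.12 in Fasn and 0.07 in Scd1.

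Acaca, the enzyme before Fasn, ran from 2.43 through 3.05 to 3.75 in control mice and from 2.11 through 3.14 to 4.21 in thymol mice. Its within-group SD of 0.49 exceeded the median of 0.35 for genes of like level. Part of its 3′ end is shared with another locus, since 22.7% of the 31-base words in its last 300 transcript bases also occur in Gm5182, which has no row in the table used here. Scd2, the paralog of Scd1, ran from 3.38 through 4.20 to 4.69 in control mice and from 3.72 through 3.97 to 4.81 in thymol mice. The control range of Acaca lay inside its thymol range, and 9 of 14 thymol mice were above the control median. In Scd2 the ranges overlapped from 3.72 to 4.69, and 4 of 14 thymol mice were above the control median. Fads1, the least abundant member with 16 to 79 reads per mouse, ran from 1.94 through 2.52 to 3.13 in control mice and from 2.39 through 2.92 to 3.36 in thymol mice. The lowest Fads1 values were thus those of control mice, and the upper parts of the groups overlapped.

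**Figure D1:**
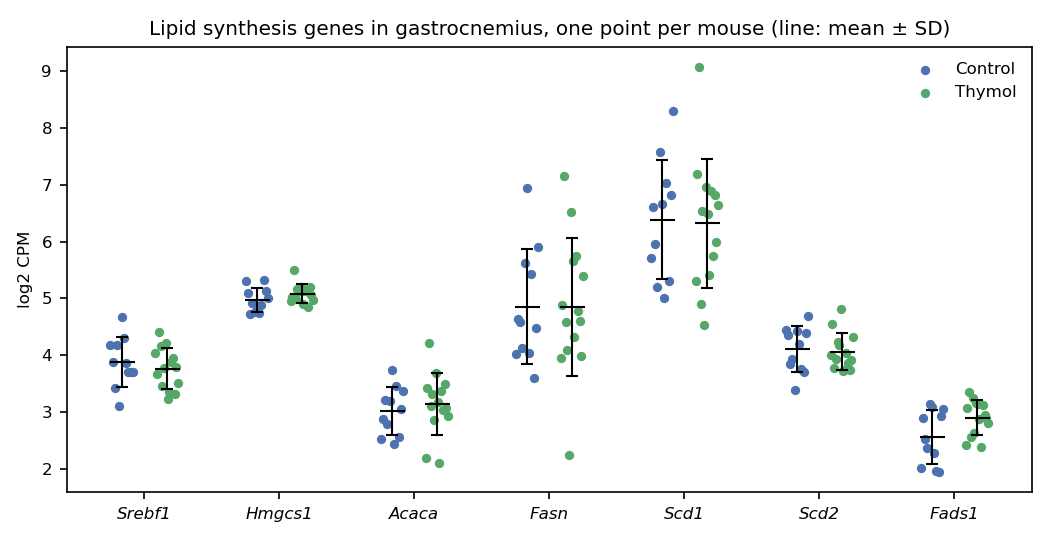
Level of the 7 genes (log2 CPM, vertical axis) in each control (blue, n = 11) and thymol mouse (green, n = 14), with the mean and SD as black bars. Fasn and Scd1 spread over the widest ranges (Fasn from 2.24 to 7.16 and Scd1 from 4.53 to 9.07), whereas all Hmgcs1 values lie between 4.72 and 5.50.

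To describe the effect of thymol, the thymol minus control difference was taken from a limma fit across all 8829 genes. None of the 7 members passed an adjusted p of 0.05, as was the case for all genes (0%, 0 of 8829), also with voom on the recovered reads. At an unadjusted p under 0.05, 1 of 7 members (Fads1) was counted against 3.53% of all genes (312 of 8829). Nothing about the members can be read from these shares, since the contrast was known when they were chosen.

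Fads1 was 0.34 higher on the log2 scale in thymol mice (SE 0.16, 95% interval 0.02 to 0.65), a 1.26-fold difference. The interval is a description, since the contrast was known when the gene was chosen. Of the 14 thymol mice, 12 were above the control median, and 1.71% of all genes had a larger absolute difference. The value was 0.34 with the adipocyte list mean described below in the fit, 0.35 with the leukocyte list mean and 0.46 with the Schwann cell list mean, the last list being 0.29 lower in thymol mice. Read counting gave an SD of 0.22 for this gene, against a within-group SD of 0.39.

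The other 6 differences were smaller. Hmgcs1 differed by 0.11 (SE 0.08) and Acaca by 0.12 (SE 0.19). Srebf1 differed by -0.12 (SE 0.15), Scd2 by -0.04 (SE 0.14) and Scd1 by -0.06 (SE 0.39). For Fasn the means were 4.85 log2 CPM in both groups, with an interval of the difference from -0.82 to 0.82. The interval of Scd1 ran from -0.86 to 0.73, whereas that of Hmgcs1, from -0.05 to 0.27, was narrow.

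**Figure D2:**
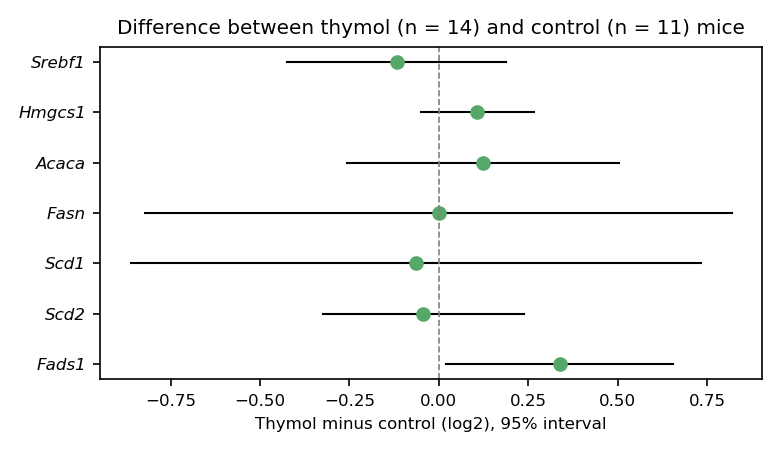
Thymol minus control difference (log2, horizontal axis) for each gene, with its 95% interval as a line. The interval runs from 0.02 to 0.65 for Fads1, and the widest intervals are those of Fasn (-0.82 to 0.82) and Scd1 (-0.86 to 0.73).

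The other genes of the pathway were taken from 5 lists of known function, which hold 66 genes of the table. By limma with Benjamini-Hochberg adjustment, 0 of 66 passed in either direction, beside 0% of all genes, and 1 of 66 had an unadjusted p under 0.05. Over all 8829 genes, 4375 had differences above 0 and 4454 below. Genes of a list were measured in the same mice, so their signs are not separate observations. In sterol uptake and efflux, all 8 genes had differences below 0, with a list median of -0.07, and they were below 0 also after median centring and quantile normalization. Of these, Scarb1 (an HDL receptor) differed by -0.16 (SE 0.17) and Apoe by -0.14 (SE 0.21).

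In cholesterol synthesis 9 of 12 genes had differences above 0, and the median was 0.07 against a median of -0.001 over all genes. Its genes with the smallest p were Pmvk (phosphomevalonate kinase) at 0.13 (SE 0.09), Fdps (farnesyl diphosphate synthase) at 0.22 (SE 0.16) and Sc5d, a late sterol desaturase, at -0.12 (SE 0.09). In fatty acid synthesis 7 of 16 were above 0, with a median of -0.01, and with quantile normalization 8 of 16 were. Here Hacd2, an elongation dehydratase, differed by -0.39 (SE 0.29), Acss2 (acetyl-CoA synthetase) by 0.19 (SE 0.15) and Hacd3 by 0.15 (SE 0.16). In glycerolipid synthesis 8 of 9 were above 0, with a median of 0.05, and Agpat1 differed by 0.11 (SE 0.08), Dgat2, which makes triglyceride, by 0.18 (SE 0.23) and Lpin1 by 0.03 (SE 0.05). Among the 22 genes that control SREBP or act beside it, 13 were above 0 and the median was 0.01. The closest to the threshold were Med15, a Mediator subunit that SREBP binds, at -0.19 (SE 0.10), Rnf139 at 0.17 (SE 0.10) and Mlxipl (the carbohydrate-responsive factor ChREBP) at 0.18 (SE 0.11). Every named gene of these lists had an adjusted p of 0.9999.

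Next, the members were compared with each other across mice, as deviations from the group means. Fasn, Scd1 and Acaca varied together, with a Pearson r of 0.78 for Scd1 and Fasn, 0.76 for Scd1 and Acaca and 0.73 for Fasn and Acaca (n = 25 mice). Fads1 joined them less closely, at 0.61 with Scd1, 0.52 with Fasn and 0.52 with Acaca. Over all mice Scd2, Srebf1 and Hmgcs1 had lower values with this trio. Srebf1 had an r of 0.23 with Fasn, 0.18 with Acaca and -0.09 with Scd1, and its highest value was 0.38, with Scd2. Hmgcs1 had an r of 0.25 with Scd1, 0.13 with Acaca and 0.00 with Fasn, and here the values of the groups had opposite signs. In control mice its r was -0.13 with Scd1, -0.42 with Acaca and -0.42 with Fasn, and in thymol mice it was 0.61, 0.58 and 0.35, a difference that was not tested. Without thymol mouse 7, the highest in all 4 genes, the thymol values were 0.22, 0.29 and -0.07. The paralogs Scd1 and Scd2 had an r of 0.13. Over the 21 pairs the median r was 0.19 and 28.6% were above 0.5, beside a median of -0.001 and 1.22% over all gene pairs of the table. The genes share libraries and depth, and these values are a description of how the list behaves.

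Thymol mouse 7 ranked first of 25 in Fasn, Scd1, Acaca, Fads1 and Hmgcs1, second in Srebf1 and 19th in Scd2. Control mouse 19 ranked second in Fasn and Acaca and first in Srebf1, but 10th in Scd1 and 21st in Hmgcs1. Thymol mouse 20 ranked first in Scd2 and had rank 3 in Fasn, Acaca and Fads1.

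For each member, the genes of the whole table that varied most like it were found by Pearson r over the 25 mice. Those of Fasn were Agpat2 (0.90), an acyltransferase of triglyceride synthesis, Ifi27l2a (0.90) and Thrsp (0.89), a lipogenic regulator. Those of Acaca were Plin1 (0.90), the coat protein of fat-cell lipid droplets, Ifi27l2a (0.86) and Slc1a3 (0.86), and those of Scd1 were Sncg (0.90), Nnat (0.88) and Aoc3 (0.87). The nearest to Fads1 were Pygl (0.82), Pttg1ip (0.80) and Sfxn1 (0.80). Srebf1 varied most like Dapk3 (0.75), Usp19 (0.74) and Hgs (0.74), Hmgcs1 like Dusp11 (0.72), Zfp518b (0.66) and Atic (0.66), and Scd2 like Ttc13 (0.71), Atg4d (0.70) and Dcaf15 (0.68). Of these genes only Agpat2, Thrsp and Plin1 are in the lipid or marker lists used here.

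Because fat cells express these enzymes, the members were tested against a list of adipocyte markers. Their naming rule does not use the list, but list and members were both chosen with earlier results of these data known. The list holds 13 marker names, of which Tusc5 is an older name of Trarg1. Of these names 8 are in the table, namely Adipoq, Plin1, Cidec, Cfd, Retn, Trarg1, Fabp4 and Cebpa. Their most abundant were Fabp4 (8.28 ± 0.68 log2 CPM in control and 8.22 ± 0.69 in thymol mice, SD), Cfd (6.52 ± 1.76 and 6.63 ± 1.62) and Adipoq (4.29 ± 1.49 and 4.29 ± 1.53). The summed level of the 8 markers ran from 198 to 2284 CPM in control mice and from 191 to 2054 CPM in thymol mice, and none was at 0 in any mouse. The mean of their log2 CPM was 4.20 ± 1.20 (SD) in control and 4.21 ± 1.28 in thymol mice, so the list varied strongly between mice and little between groups.

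Fasn, Scd1 and Acaca rose with the adipocyte markers. In a limma fit of treatment and list mean across all genes, the slope (log2 of the gene per log2 of the list mean) was 0.81 for Fasn (SE 0.08, adjusted p 1.975e-08), 0.72 for Scd1 (SE 0.10, adjusted p 7.784e-06) and 0.34 for Acaca (SE 0.05, adjusted p 1.202e-05). A doubling of the markers thus went with a 1.75-fold higher Fasn, a 1.65-fold higher Scd1 and a 1.27-fold higher Acaca. The 3 genes are 3 of 7 members, against 0.692% of all genes with a slope above 0 that passed (61 of 8821). Nothing about the members as a group can be read from this share. Their co-variation between mice was known when they were chosen, and a shared slope on a list is part of it. The same limit holds for the adjusted p-values of single members, which are given as a description. Fads1 had a slope of 0.20 (SE 0.05), and its adjusted p of 0.0737 missed the threshold. It was 0.0402 with voom on the recovered reads, and 0.0444, 0.0238 and 0.0219 without control mouse 10, control mouse 27 and thymol mouse 24. In the other 22 fits with 1 mouse left out it stayed above the threshold, at up to 0.176. With the leukocyte list mean (described below) also in the fit, the adipocyte slope of Fads1 was 0.13 (SE 0.06, adjusted p 0.745).

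The other 3 members showed no detectable relation to the adipocyte markers. The slopes were 0.04 for Scd2 (SE 0.06, adjusted p 0.885), 0.03 for Srebf1 (SE 0.06, adjusted p 0.918) and 0.01 for Hmgcs1 (SE 0.03, adjusted p 0.965). For Srebf1, r with the list mean was 0.11, and -0.36 without the 2 mice farthest from the list median. In Hmgcs1, r with the list mean was -0.51 in control and 0.58 in thymol mice (0.30 without thymol mouse 7), and the difference between the slopes was 0.16 (SE 0.06), which did not pass over all genes by limma (adjusted p 0.545). No gene of the table passed that test of treatment by list mean.

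**Figure D3:**
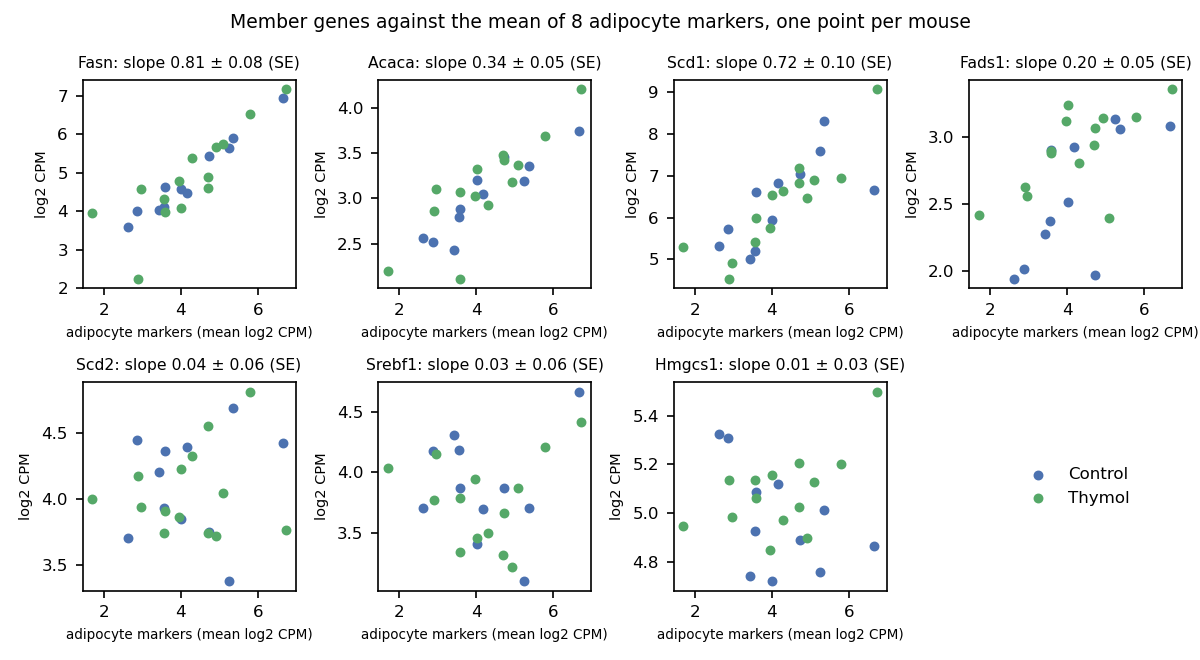
Level of each gene (log2 CPM, vertical axis) against the mean of the 8 adipocyte markers (log2 CPM, horizontal axis) for control (blue) and thymol mice (green), 1 point per mouse. Fasn, Acaca and Scd1 rise along the axis with slopes of 0.81, 0.34 and 0.72, whereas Scd2, Srebf1 and Hmgcs1 scatter around slopes of 0.04, 0.03 and 0.01.

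Paralog pairs are set side by side here as a description, since both pairs were chosen after their slopes were seen. The slope of the difference between Scd1 and Scd2 on the adipocyte list mean was 0.68 (SE 0.12), and 0.56 to 0.84 with any 1 mouse left out. For Acaca and Acacb, the acetyl-CoA carboxylase at the outer mitochondrial membrane, it was 0.33 (SE 0.05), and 0.31 to 0.35 with any 1 mouse left out.

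With the adipocyte list mean taken out, the within-group SD of Fasn went from 1.13 to 0.53, that of Scd1 from 1.10 to 0.65, that of Acaca from 0.49 to 0.26 and that of Fads1 from 0.39 to 0.30. The r of Scd1 and Fasn was then 0.22, that of Scd1 and Acaca 0.19, and that of Fasn and Acaca -0.16. The SDs of Srebf1, Scd2 and Hmgcs1 were 0.40, 0.37 and 0.19 after adjustment, beside 0.40, 0.36 and 0.19 before it. The r of Scd2 and Srebf1 was 0.37 after it and 0.38 before.

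**Figure D4:**
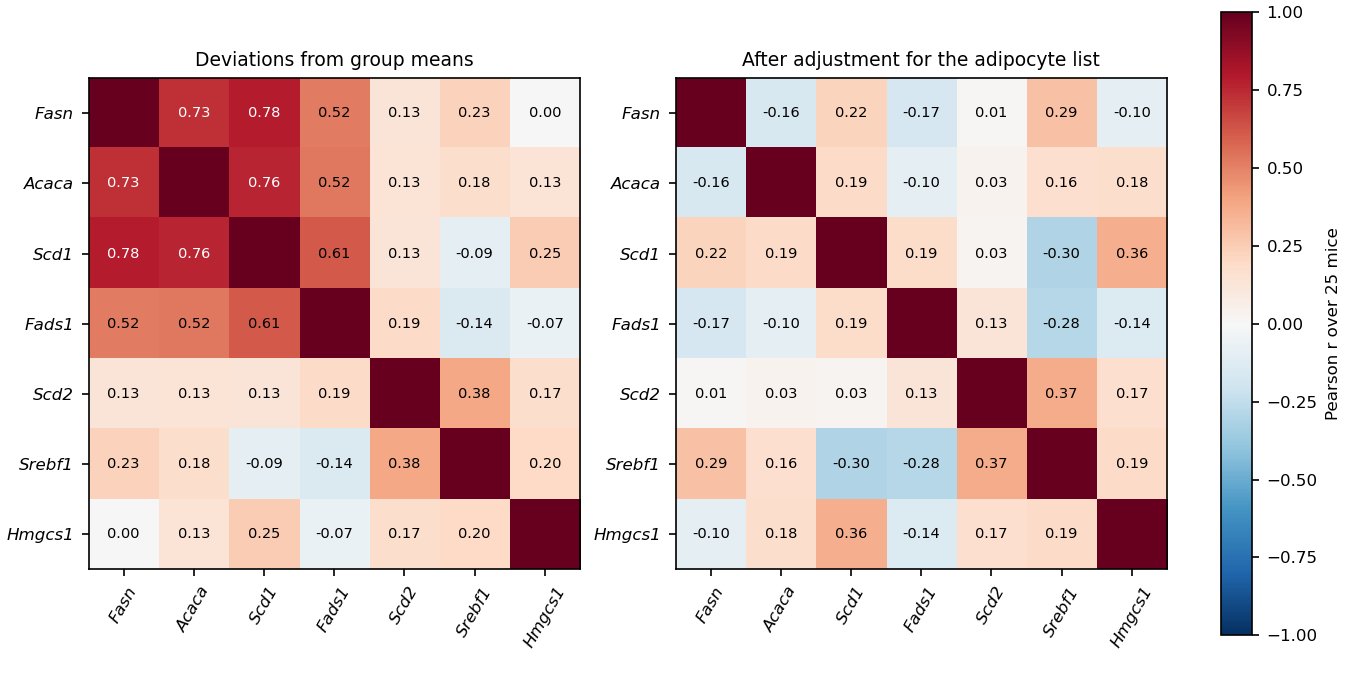
Pearson r between the 7 genes over 25 mice (color scale from -1 to 1), as deviations from group means on the left and after adjustment for the adipocyte list mean on the right. The block of Fasn, Acaca and Scd1 goes from 0.73 to 0.78 on the left to between -0.16 and 0.22 on the right, and the pair Scd2 and Srebf1 stays near 0.38.

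The same fit was read for the 66 other pathway genes, beside 0.692% of all genes with a slope above 0 that passed (61 of 8821). Among fatty acid genes 3 of 16 rose with the adipocyte list, namely Thrsp (slope 0.65, SE 0.07), Hacd2 (0.41, SE 0.09) and Hsd17b12 (0.34, SE 0.06), with adjusted p-values of 6.798e-08, 0.0239 and 0.00101 by limma. Among glycerolipid genes 3 of 9 rose, namely Agpat2 (0.47, SE 0.05), Dgat2 (0.34, SE 0.07) and Dgat1 (0.26, SE 0.05), the last 2 making triglyceride from diacylglycerol. Of the 12 cholesterol genes only Acat2, a cytosolic thiolase at the head of the mevalonate pathway, rose (0.37, SE 0.07, adjusted p 0.0038), and of the 8 genes of sterol uptake and efflux only Apoe did (0.28, SE 0.07, adjusted p 0.0355). None of the 22 genes around SREBP control passed, which is near the share over all genes and does not set this list apart. Srebf2 had a slope of -0.01 (SE 0.06), Scap of 0.03 (SE 0.04) and Mlxipl of -0.11 (SE 0.04). Acly, which makes cytosolic acetyl-CoA, had a slope of 0.19 (SE 0.05, adjusted p 0.081). The genes named here were those that passed, beside a few chosen after their values were seen.

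**Figure D5:**
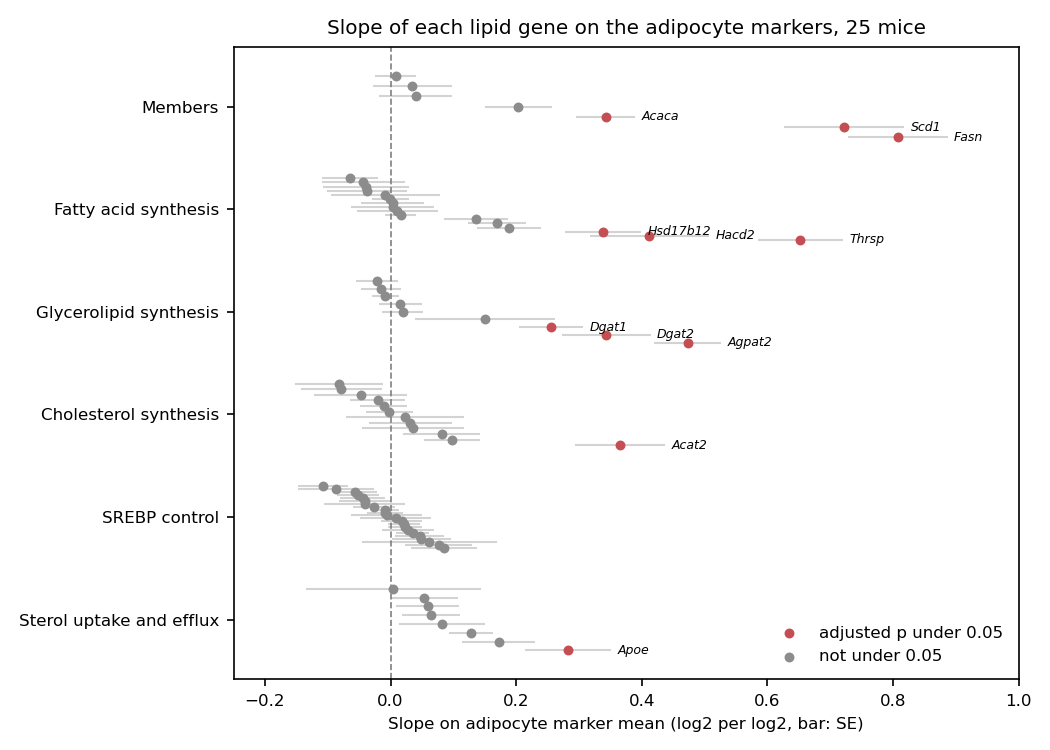
Slope of each lipid gene on the mean of the adipocyte markers (horizontal axis, log2 per log2) with its SE as a bar, by list (vertical axis). Genes with an adjusted p under 0.05 (red) reach 0.81 in Fasn, and in the list of SREBP control all 22 slopes are gray and near 0.

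Markers of other cells were tested in the same way, and the same limits hold for their shares and for the p-values of the members. The leukocyte list (13 of 15 markers in the table) had summed levels of 134 to 580 CPM in control and 139 to 455 CPM in thymol mice, with no marker at 0. Fads1 rose with it by 0.44 (SE 0.11, adjusted p 0.0202) and Scd1 by 1.07 (SE 0.28, adjusted p 0.0255) in the limma fit, 2 of 7 members beside 3.09% of all genes with a slope above 0 that passed (272 of 8816). The means of the leukocyte and adipocyte lists had an r of 0.54. With both in the fit no member passed for leukocytes, beside 2.13% of all genes (188 of 8808). At an unadjusted p under 0.05 there were 2 of 7, beside 14.1% of all genes, namely Fads1 with a slope of 0.29 (SE 0.13) and Srebf1 with one of -0.39 (SE 0.14), whereas Scd1 had a slope of 0.35 (SE 0.23). In the same fit Fasn (0.83), Scd1 (0.63) and Acaca (0.36) passed for adipocytes, beside 0.454% of all genes with a slope above 0 that passed, with adjusted p-values of 6.018e-07, 0.000937 and 0.000197. Without control mouse 18 the leukocyte count was 0 of 7, and without control mouse 35 or control mouse 15 it was 1 of 7.

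Schwann cells make the lipids of myelin, and 8 of 17 of their markers are in the table, Mbp, a protein of myelin, among them. Their summed level was 88.0 to 284 CPM in control and 85.5 to 188 CPM in thymol mice, with none at 0. No member passed by limma with this list, beside 0.0113% of all genes (1 of 8821), and 2 of 7 had an unadjusted p under 0.05, beside 5.66% of all genes, namely Fads1 (slope 0.44, SE 0.18) and Scd2 (slope 0.36, SE 0.16). The list of slow-fibre genes gave none of 7, beside 0.998% (88 of 8819), with Fasn at -0.30 (SE 0.14) the only member with an unadjusted p under 0.05, beside 10.3% of all genes. For Fasn, r with this list mean was 0.01 in control and -0.50 in thymol mice. Over all mice it was -0.36, and -0.24 without the 2 mice farthest from the list median. The slow-fibre genes, 10 in the table, summed to 1040 to 8340 CPM in control and 127 to 10800 CPM in thymol mice. The lowest mean of this list was that of thymol mouse 20, at 3.19 log2 CPM, and the next was 5.84 in thymol mouse 3.

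Feeding state at collection is not given in the labels, and SREBP-1c is known to respond to it. The list of fasting-response genes (9 of 12 in the table) summed to 1171 to 2334 CPM in control and 1227 to 1876 CPM in thymol mice. None of 7 members passed by limma with it, beside 0.238% of all genes (21 of 8820), and none had an unadjusted p under 0.05, beside 8.24% of all genes. The slope of Fasn was 1.35 (SE 0.68) and that of Srebf1 0.33 (SE 0.27), both with wide errors. For Fasn, r with the list mean was 0.35, and 0.07 without the 2 mice farthest from the list median. The genes of this list varied together only loosely, so its mean may follow feeding state poorly, which was not tested. Their r with the rest of the list ran from 0.11 (Fbxo32) to 0.59 (Ucp3). For the adipocyte markers it ran from 0.82 (Trarg1) to 0.98 (Adipoq). Which cells of the muscle gave the reads of the members cannot be told apart in bulk RNA.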

How the data were processed

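The deposited table holds log2 CPM values made by the authors from QuantSeq 3′ FWD libraries of gastrocnemius RNA. Per the labels and the study's methods, reads were mapped to GRCm38 with STAR 2.5.3 and counted with HTSeq 0.6.1. Per the same sources, genes were kept at 30 reads in at least 6 samples, and TMM normalization (edgeR) gave the log2 values. The study's methods give a larger number of kept genes than the table used here holds, without naming the data set it belongs to. The table gives no read counts, and the steps between values returned whole reads for 100.0% of values (within 0.1 of a whole number). These reads gave the totals per mouse, the summed levels and the voom alternatives. Read depth limits Fads1 and Acaca most. Counting SDs cover counting error only, since reads without molecular identifiers are not independent molecules.

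Mice were grouped by treatment in their titles and named by the last number there. Each mouse counted as 1 replicate. All fits used limma 3.58.1 (R 4.3.3) with trend on the log2 values of all 8829 genes, with two-sided tests, p-values adjusted by Benjamini-Hochberg across the genes tested and a threshold of 0.05. A marker list's slope came from a model of treatment plus the mean log2 value of its genes. Those genes, which enter that mean, stayed in the adjustment. They were left out only of the shares of all genes given beside a list. Deviations from group means gave the correlations. Scripts were tested on simulated data. Python 3.11.15 was used for the rest. The named genes are the members, the 3 genes of each pathway list with the smallest unadjusted p, the 3 genes most like each member, and up to 3 of the most abundant genes of a marker list. Further genes are named where they passed or as stated. The members and lists were chosen with earlier results of these data known. Positions come from GENCODE M21 and promoters from RefSeq, where Fads1, Scd1 and Scd2 had no entry. Alternatives covered normalization, filters, the added constant, voom, the fit, label numbers, marker lists as covariates and each mouse left out. Some genes that the naming rule selects are not reported here.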

Additional observations from a re-analysis of the deposited data

How the results depend on the processing

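The count of genes that differed with thymol was 0 under all 14 alternatives and with each mouse left out, and so was that of the pathway genes. At an unadjusted p under 0.05 it ran from 234 to 348 genes. The Fads1 difference stayed between 0.30 and 0.46 under the alternatives that could give it and between 0.27 and 0.39 with any 1 mouse left out. The filter on the 75% of genes with the highest mean removed Fads1. With the first number in the labels as a block, whose meaning is not given in the sources used here, the differences were -0.52 for Scd1 and -0.68 for Fasn, and the cause was not tested. The adipocyte count of members was 3 to 4 throughout.

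The leukocyte count, 2 of 7 members, was 0 without the 2 mice farthest from the median of the list, 1 with robust moderation, and 0 with the adipocyte list in the same model. The slopes were 0.48 for Fads1 and 1.24 for Scd1 without the 2 mice and 1.07 for Scd1 with robust moderation, beside 0.44 and 1.07, so the calls were lost without a smaller slope. With the adipocyte list they were 0.29 and 0.35. With each mouse left out it ran from 0 to 3. The median r of the 21 pairs, 0.19, was 0.33 in thymol mice alone. The cause of these shifts was not tested. The median r of Fasn, Scd1 and Acaca was 0.76, and 0.19 after the adipocyte list. The models with both lists or with the library number, the robust slopes, the test of treatment by list, voom for the slopes and the Hmgcs1 values without thymol mouse 7 were chosen after seeing the data. The last numbers of the labels, which name the mice, do not repeat between groups, and the first number is shared by both groups for 7 of its 16 values (16 mice). The fit with it as a block is the only one that pairs mice across groups. Fads1, with 16 to 79 reads per mouse, is the gene most limited by depth.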
